A study of Mus musculus with 12 samples.

Results

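The cells compared were mouse embryonic fibroblasts that expressed T-N2G and mock cells of the same background, both given vehicle. The libraries were those titled T-N2G with vehicle and mock with vehicle, 3 of each, joined in pairs by the replicate number in the title, and they make up 6 of the 12 libraries of the series. All cells, controls included, were immortalized embryonic fibroblasts with the genotype MafF-/-::MafG-/-::MafK-/-, abbreviated F0G0K0, which lack the 3 small Maf proteins. T-N2G is a heterodimer of Nrf2 and MafG joined by a tether. Vehicle was given for 12 h, and the other 6 libraries came from the same 2 cell populations after 12 h in 100 µM diethyl maleate (DEM), with 3 libraries each. The question put to the vehicle libraries was which genes differ when the tethered pair is present and no electrophile is added. The sources used here do not give the promoter that drives T-N2G, whether either population was 1 clone or a pool, which embryo it came from, or what solvent the vehicle was. Nor do they say that replicates were separate cultures, so the p-values measure the spread between these libraries, which may be technical.

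Nrf2, the product of Nfe2l2, is a basic leucine zipper transcription factor that binds DNA as a heterodimer with a small Maf protein (MafF, MafG or MafK) at antioxidant response elements. In unstressed cells the adaptor Keap1 directs Nrf2 to degradation by the proteasome. Electrophiles such as DEM, which also consumes glutathione, modify Keap1, after which Nrf2 accumulates and induces genes of glutathione synthesis, detoxification, heme and iron handling and NADPH supply. Small Maf proteins have no transactivation domain of their own and can form homodimers that occupy the same elements.

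Polyadenylated RNA was measured, with 20424988 to 21311856 fragments assigned to genes in each vehicle library and 14817 to 15141 genes detected. Levels are given in CPM, in which fragments are divided by the size of the library after TMM scaling, for replicates 1, 2 and 3 in that order, or their mean ± SD with n = 3 in each group. Fold changes come from edgeR's quasi-likelihood test on all 12 libraries with the replicate number as a term, given as log2 ± standard error, and a gene is called at a Benjamini-Hochberg adjusted p under 0.05. Of the 24318 genes in the table, 12469 were tested. Of 13 fibroblast markers the collagens Col1a1 (3460 to 4390 CPM over the 6 libraries) and Col1a2 (2570 to 3820 CPM), Thy1, Vim, Prrx1, Twist1, S100a4, Pdgfra and Pdgfrb were at 42.4 CPM or more in every library. Dcn was at 3 to 12 CPM, and Lum (at most 0.143 CPM) and Fap (at most 0.237 CPM), fibroblast genes too, were nearly absent. In bulk RNA, fewer cells of a type and less RNA per cell cannot be told apart.

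The introduced genes were examined first. Mafg was at 0.55, 0.519 and 0.472 CPM in the mock libraries and at 143, 106 and 161 CPM in the T-N2G libraries. It was 263-fold higher in T-N2G cells (log2 8.04 ± 0.10, adjusted p = 4.51e-19). Nfe2l2 was at 47.4, 58.5 and 53.7 CPM in mock and 612, 485 and 701 CPM in T-N2G libraries, an 11.1-fold difference (log2 3.48 ± 0.11, adjusted p = 1.13e-12). For both genes every T-N2G library lay far above every mock library, and replicate 2 was the lowest of the T-N2G libraries. Fragments are summed per gene, so the construct cannot be separated from the chromosomal genes. On the length-scaled FPKM scale the level in T-N2G cells was 262 ± 48.9 for Nfe2l2 and 94.8 ± 19.8 for Mafg, each scaled by the length of the annotated transcript, which need not be that of the construct. The other small Maf genes were not called. Maff was at 4.6, 4.25 and 3.35 CPM in mock and 4.57, 3.08 and 3.68 CPM in T-N2G libraries (log2 -0.11 ± 0.19, adjusted p = 0.806). Mafk was at 2.2, 2.17 and 1.75 and 1.92, 1.42 and 1.53 CPM (log2 -0.33 ± 0.20, adjusted p = 0.372). The genotype labels give both as deleted, and the fragments counted for them do not show whether a functional transcript is made. In Mafg and Nfe2l2 no library went against its label.

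**Figure D1:**
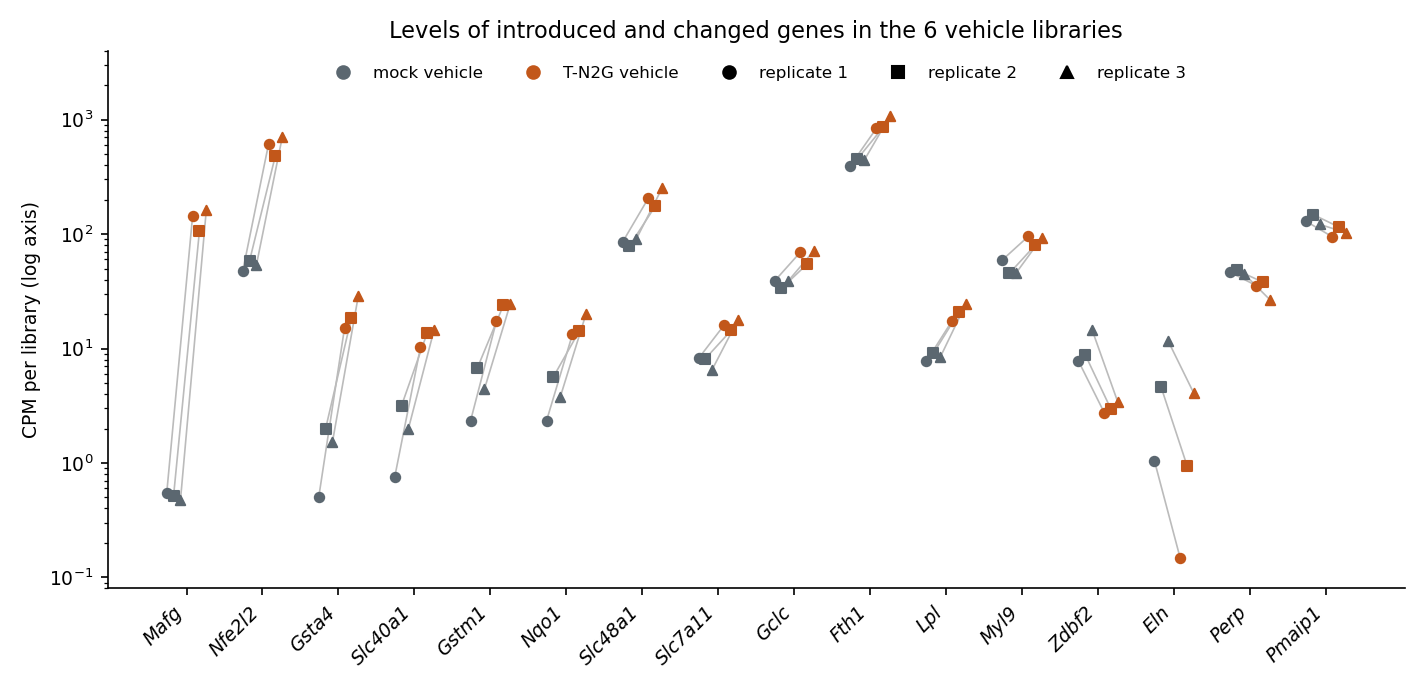
CPM on a log axis in each of the 6 vehicle libraries for 16 genes, with mock in grey and T-N2G in orange; the symbol gives the replicate number and a thin line joins the libraries of 1 number. Mafg shows the widest separation, and Eln, Perp and Pmaip1 lie lower in T-N2G in each of the 3 pairs.

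Across all tested genes 381 were called higher in T-N2G cells (3.06% of genes tested) and 404 lower (3.24%), together 785 (6.3%). Without the replicate number in the model the counts were 38 (0.305%) and 1 (0.00802%), and all 39 of those genes (0.313%) were among the 785 and in the same direction. Most differences were small. The median of the genes called higher was 1.29-fold, 268 of the 381 were under 1.5-fold, 54 (0.433% of genes tested) were at least 2-fold and 19 at least 4-fold. Among the genes called lower the median was 1.25-fold, 331 of 404 were under 1.5-fold, 28 (0.225%) were at least 2-fold and 3 at least 4-fold. The T-N2G and mock libraries did not overlap for 214 of the genes called higher and 170 of those called lower, where 5.11% and 5.09% of all tested genes did not overlap in these directions. Counts depended on replicate 3. They were 206 higher and 148 lower without mock replicate 3, and 204 and 137 without T-N2G replicate 3. The number called lower was also 212 without T-N2G replicate 1 and 233 without mock replicate 2. Genes were named by a rule that mostly takes called genes, many by smallest adjusted p, so counts among them do not describe the 785 calls. Of the 132 genes so named, 124 were called. The call held for 76 of them after the omission of any 1 vehicle library, and for 23 also without the replicate number in the model. These 23 were Mafg, Nfe2l2, Gsta4, Foxd1, Slc40a1, Ttn, Gstm1, Daam2, Clmp, Nqo1, Peg10, Zdbf2, Gclc, Slc7a11, Slc48a1, Fth1, Ftl1, Heph, Me1, Myl9, Lpl, Cdkn1c and Ddx3y. The other called genes given with values below were not called without that term.

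**Figure D2:**
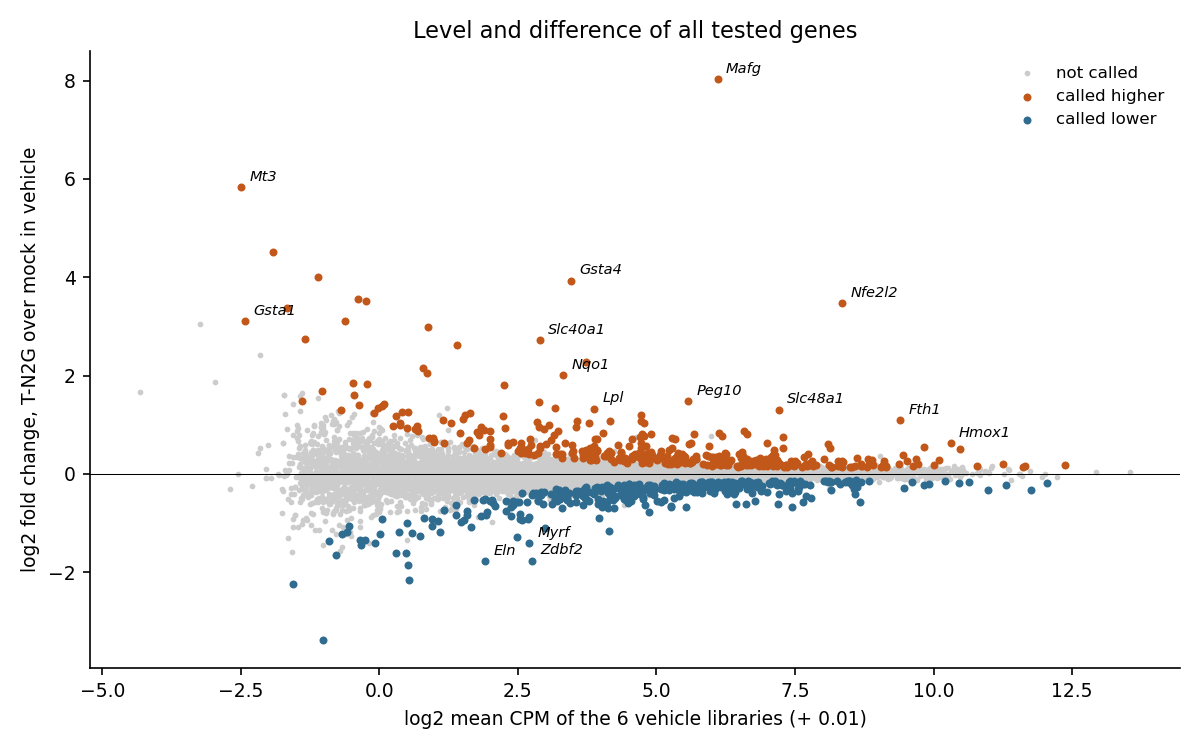
Fitted log2 difference between T-N2G and mock cells in vehicle (vertical axis) against the log2 mean CPM of the 6 vehicle libraries (horizontal axis) for all 12469 tested genes, with the 381 genes called higher in orange and the 404 called lower in blue. Mafg lies highest and Nfe2l2, at 3.48, lies below Gsta4 and a few genes of low level, while most called genes lie close to 0.

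The genes of heme and iron handling held the most calls by number of any list of antioxidant function, in 1 of the longer lists. By share called in either direction (42.9%) the list did not lead. The thioredoxin and the peroxidase, catalase and dismutase lists had the same share and ABC efflux 50%, beside 6.3% of all tested genes. Of 21 tested members 9 rose and none fell, beside 3.06% and 3.24% of all tested genes, and 5 rose without the replicate number. The median log2 fold change of the 21 was 0.07 against 0.00 over all tested genes. Slc40a1 encodes ferroportin, the exporter of iron. It was at 0.75, 3.16 and 1.98 CPM in mock and 10.3, 13.8 and 14.7 CPM in T-N2G libraries, 6.61-fold higher (log2 2.73 ± 0.17, adjusted p = 1.77e-08). Slc48a1, a transporter that moves heme out of endosomes and lysosomes, was at 85.1, 78.8 and 90.2 and 206, 175 and 252 CPM, 2.48-fold higher (log2 1.31 ± 0.06, adjusted p = 1.48e-10). In both genes the mock and T-N2G libraries did not overlap. The ferritin heavy chain gene Fth1, whose product stores iron, was at 397, 453 and 441 CPM and 837, 857 and 1074 CPM, 2.14-fold higher (log2 1.10 ± 0.06, adjusted p = 3.89e-09). Its light chain partner Ftl1 was at 1167, 1109.6 and 1252 and 1600.3, 1558 and 1890.1 CPM (log2 0.51 ± 0.05, adjusted p = 2.5e-06). Both ferritin genes have many near-identical processed copies in the mouse genome, so their counts are uncertain in how reads were shared. Hmox1, the inducible heme oxygenase that opens the heme ring, was abundant in mock cells too, at 978, 766 and 1246 CPM against 1437, 1207 and 1977 CPM in T-N2G (log2 0.62 ± 0.10, adjusted p = 0.000568). Its groups overlapped, since mock replicate 3 lay above T-N2G replicate 2, while each pair of the same number had the T-N2G library higher. Heph, a copper ferroxidase that works with ferroportin, was at a low level of 0.127 ± 0.0705 CPM in mock and 1.15 ± 0.492 CPM in T-N2G (log2 3.11 ± 0.41, adjusted p = 0.000118). The remaining calls were Blvrb, which reduces biliverdin, Tfrc, the transferrin receptor, and Steap3, a ferric reductase. With any 1 vehicle library left out the list had 8 or 9 calls.

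Glutathione S-transferases join glutathione to electrophiles. Of 16 tested members 5 rose and none fell, beside 3.06% and 3.24% of all tested genes. Gsta4 and Gstm1 were the 2 called without the replicate number. Gsta4, an alpha class enzyme that acts on lipid peroxidation products, was at 0.500, 1.98 and 1.51 CPM in mock and 15.1, 18.4 and 28.5 CPM in T-N2G libraries. That 15.3-fold difference (log2 3.93 ± 0.17, adjusted p = 7.68e-11) followed only Mafg in size among the genes named for the largest rise. Gstm1, of the mu class, was at 2.35, 6.8 and 4.39 and 17.4, 23.8 and 24.3 CPM, 4.87-fold higher (log2 2.28 ± 0.14, adjusted p = 1.33e-08). For these genes mock replicate 1 was the lowest library, and no mock library reached a T-N2G library. Gstm2 rose by less, from 2.83 ± 0.945 to 5.15 ± 1.32 CPM (log2 0.86 ± 0.13, adjusted p = 0.000443). Mu class genes lie side by side and are alike in sequence, so reads between Gstm1 and Gstm2 may have been shared. Gsta1 had 0.0315 ± 0.0272 CPM in mock and 0.321 ± 0.146 CPM in T-N2G (log2 3.10 ± 0.72, adjusted p = 0.0167), a few fragments per library, and its call was lost without mock replicate 1, mock replicate 3 or T-N2G replicate 3 (adjusted p up to 0.114 in edgeR). Gstp1, of the pi class and with a near-identical neighbour, was at 17.2 ± 1.61 and 20.3 ± 2.12 CPM and lost its call without any 1 of the 6 libraries (adjusted p up to 0.203 in edgeR). The count of transferases was 3 without mock replicate 1, mock replicate 3 or T-N2G replicate 3.

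Of 12 tested genes of glutathione synthesis and cystine import 3 rose and none fell, beside 3.06% and 3.24% of all tested genes. These 3 were called after leaving out any 1 vehicle library. Gclc encodes the catalytic subunit of the ligase that joins glutamate to cysteine, the limiting step in making glutathione. It was at 38.8, 33.5 and 38.9 CPM in mock and 69.4, 54.7 and 71.7 CPM in T-N2G libraries, 1.76-fold higher (log2 0.81 ± 0.05, adjusted p = 3.8e-08). The modifier subunit Gclm was at 50.9, 48.7 and 48.7 and 72.9, 65.1 and 83.2 CPM (log2 0.57 ± 0.07, adjusted p = 8.27e-05). Mock libraries of both subunits lay in a narrow range, and the 3 T-N2G libraries were all above it with replicate 2 the lowest. Slc7a11, which exchanges glutamate for the cystine that glutathione synthesis needs, was at 8.2, 8.17 and 6.56 and 16.1, 14.4 and 17.9 CPM, 2.11-fold higher (log2 1.07 ± 0.15, adjusted p = 0.000204). Gclc and Slc7a11 were also called without the replicate number.

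Among 24 tested genes of quinone and carbonyl detoxification 5 rose and 2 fell, beside 3.06% and 3.24% of all tested genes. Nqo1, which reduces quinones with NADPH or NADH, was at 2.35, 5.66 and 3.77 CPM in mock and 13.3, 14.2 and 20.2 CPM in T-N2G libraries, 4.03-fold higher (log2 2.01 ± 0.17, adjusted p = 1.35e-06), and was the call of this list that held without the replicate number. Esd, the esterase that hydrolyses S-formylglutathione, was at 70.9, 66.9 and 75.6 and 133, 94.6 and 153 CPM (log2 0.82 ± 0.08, adjusted p = 2.5e-06). Neither gene had overlapping groups. Akr1b8, an aldo-keto reductase, rose from 6.01 ± 1.04 to 8.83 ± 1.22 CPM (log2 0.56 ± 0.11, adjusted p = 0.00422). Ptgr1, a reductase of lipid enals, was at 25.5 ± 4.68 and 33.8 ± 4.09 CPM, and its call was lost without replicate 3 of either group (adjusted p up to 0.138 in edgeR). Aldh2, the mitochondrial aldehyde dehydrogenase, was the remaining call. The 2 genes called lower were Ces2g, a carboxylesterase (8.45 ± 2.25 CPM in mock, 4.42 ± 0.874 CPM in T-N2G, log2 -0.92 ± 0.17, adjusted p = 0.00268), and Ephx1, the microsomal epoxide hydrolase. Ephx1 was at 49.4, 106 and 64.1 CPM in mock and 45.7, 88.2 and 44.9 CPM in T-N2G libraries, so the replicates of 1 group differed more than the groups, and the call was lost in 4 of 6 omissions of 1 library, namely T-N2G replicates 1 and 3 and mock replicates 2 and 3 (adjusted p up to 0.226 in edgeR). Without replicate 3 of either group 3 members were called higher.

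In the thioredoxin and peroxiredoxin list, which removes peroxides through protein thiols, 5 of 14 members rose and 1 fell. Of all tested genes 3.06% rose and 3.24% fell. None of the 14 was called without the replicate number. Prdx6, a peroxiredoxin that uses glutathione, was at 81, 60.5 and 59.2 CPM in mock and 142, 93.3 and 136 CPM in T-N2G libraries (log2 0.88 ± 0.11, adjusted p = 7.93e-05). Txnrd1, the cytosolic thioredoxin reductase, was at 272, 204 and 212 and 376, 262 and 359.6 CPM (log2 0.53 ± 0.07, adjusted p = 0.000216). Replicate 1 was the highest mock library for both genes, and for Txnrd1 it lay above T-N2G replicate 2. Srxn1, sulfiredoxin, which repairs overoxidized peroxiredoxins, rose from 31.7 ± 1.88 to 46 ± 5.88 CPM (log2 0.53 ± 0.09, adjusted p = 0.00114), and the peroxiredoxin gene Prdx1 from 178 ± 7.53 to 226 ± 6.98 CPM (log2 0.34 ± 0.06, adjusted p = 0.00101). Txn1, thioredoxin itself, was at 304 ± 25.9 and 358 ± 21 CPM, and its call was lost without mock replicate 2, mock replicate 3 or T-N2G replicate 3 (adjusted p up to 0.0589 in edgeR). Nxn, nucleoredoxin, was the 1 member called lower (178 ± 9.79 against 156 ± 16.2 CPM), a call lost without replicate 1 or 3 of either group (adjusted p up to 0.149 in edgeR). Of 7 tested glutathione peroxidases, catalase and superoxide dismutases, Sod1, Cat and Gpx1 were called higher, beside 3.06% of all tested genes. Sod1, the cytosolic superoxide dismutase, was at 123, 123 and 109.6 and 151, 143 and 153 CPM (log2 0.34 ± 0.05, adjusted p = 0.000443). The count of this list was 1 without mock replicate 1 or T-N2G replicate 1, 2 or 3. Cat lost its call in 5 of 6 omissions (all but mock replicate 2, adjusted p up to 0.205 in edgeR), as did Gpx1 (all but mock replicate 3, up to 0.248).

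Of 13 tested genes that supply NADPH, the reductant of both thiol systems, 5 rose and none fell. Of all tested genes 3.06% rose and 3.24% fell. The same count of NADPH genes was reached after the omission of any 1 vehicle library. Me1, malic enzyme, was at 57, 59.1 and 45.4 CPM in mock and 97.1, 86.7 and 89.8 CPM in T-N2G libraries, 1.7-fold higher (log2 0.76 ± 0.08, adjusted p = 6.89e-06), and was also called without the replicate number. Pgd and G6pdx encode the oxidative enzymes of the pentose phosphate pathway. Pgd was at 98.3, 96.9 and 103 and 156, 129 and 183 CPM (log2 0.64 ± 0.07, adjusted p = 9.65e-06). G6pdx was at 62, 64.3 and 65.4 and 85.1, 76.5 and 97.8 CPM (log2 0.43 ± 0.07, adjusted p = 0.000774). In these 3 genes each T-N2G library was above each mock library. The non-oxidative enzymes Taldo1 (log2 0.40 ± 0.07, adjusted p = 0.00273) and Tkt (log2 0.22 ± 0.04, adjusted p = 0.00273) completed the list. Among 6 tested ABC transporters the glutathione conjugate exporter Abcc1 rose from 119 ± 15.6 to 155 ± 24.8 CPM (log2 0.38 ± 0.06, adjusted p = 0.000788). Abcg2, an exporter of urate and drugs, fell from 44.6 ± 0.962 to 37.1 ± 2.51 CPM (log2 -0.27 ± 0.05, adjusted p = 0.00457). Abcc4 was at 23 ± 1.25 and 28.9 ± 2.05 CPM and lost its call without replicate 3 of either group (adjusted p up to 0.101 in edgeR).

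Taken over these 8 lists of antioxidant, detoxification, heme and NADPH genes, 37 of 113 tested members (32.7%) rose and 4 fell, beside 3.06% and 3.24% over all genes. Without the replicate number 11 rose and none fell, beside 0.305% over all genes. The median log2 fold change of the 113 genes was 0.06, so most members differed little. The lists were drawn up with earlier results of these data known, and their counts are descriptions. In 28 of the 37 the 2 groups of libraries did not overlap, as in 214 of all 381 genes called higher and in 5.11% of all tested genes. Genes picked because they were called tend to be separated, so this count is no further evidence.

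**Figure D3:**
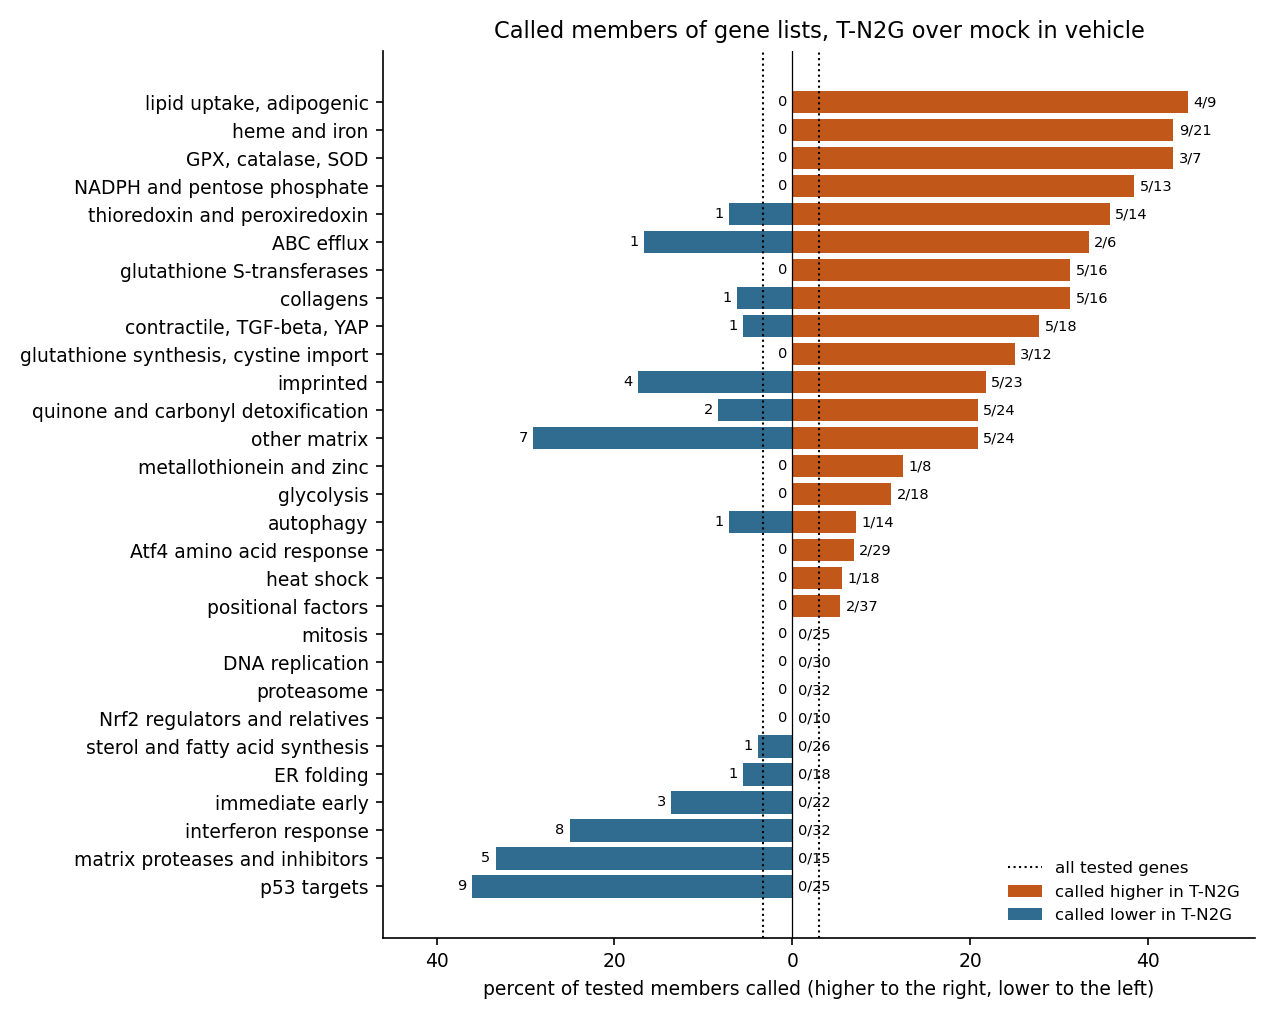
Percent of the tested members of each gene list called higher (orange, to the right, with the number called over the number tested) and lower (blue, to the left, with the number called) in T-N2G over mock cells in vehicle; the dotted lines give the percentages over all tested genes, 3.06% and 3.24%. The lists of glutathione, thioredoxin, heme and iron and NADPH genes extend to the right of the line. So do others, among them collagens, contractile genes and lipid uptake, which reaches farthest (4 of 9). The p53, interferon, matrix protease, immediate early, ER folding and sterol lists have calls to the left only.

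The promoters of the genes that rose were examined for the antioxidant response element, since the heterodimer binds it. RefSeq promoter sequences (GRCm38.p6, 250 bases before to 50 after each gene's start), which are of another build than the mm9 of the deposited table, were matched by symbol. They were searched on both strands for TGACNNNGC and for TGACTCAGC, a form that includes the AP-1 word TGACTCA. Of the genes called higher in the 8 lists, 9 had a match. The stretches below show 7 of these, chosen after the matches were seen because the match begins before the start of transcription, 5′ to 3′ on the strand of the gene, and Ctla2a, a gene that fell, for comparison. The matches of Srxn1 and Pgd lie after the start and are not shown, nor are those of Mafg, Nfe2l2 and other named genes outside the 8 lists. Also left out is another Abcc4 promoter, whose match TGACCCCGC begins 25 bases before its own start and so meets the same condition. Capitals mark the match, which reads TGACTCAGC or TGACNNNGC directly or on the opposite strand, and each stretch lies upstream of the start of transcription, except that the match of Me1 runs across it.
Prdx1, chr4:116685441-116685499, plus strand, 133 bases upstream: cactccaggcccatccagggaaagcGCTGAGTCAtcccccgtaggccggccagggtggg
Me1, chr9:86695912-86695945, minus strand, 6 bases upstream: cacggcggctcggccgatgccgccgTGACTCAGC
G6pdx, chrX:74428904-74428962, minus strand, 57 bases upstream: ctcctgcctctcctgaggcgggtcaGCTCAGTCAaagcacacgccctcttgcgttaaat
Gclm, chr3:122245398-122245456, plus strand, 134 bases upstream: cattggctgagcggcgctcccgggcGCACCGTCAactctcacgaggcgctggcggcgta
Txnrd1, chr10:82859089-82859147, plus strand, 92 bases upstream: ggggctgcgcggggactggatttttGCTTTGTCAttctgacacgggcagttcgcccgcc
Sod1, chr16:90220681-90220739, plus strand, 56 bases upstream: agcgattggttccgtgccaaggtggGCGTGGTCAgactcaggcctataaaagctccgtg
Abcc4, chr14:118676932-118676979, minus strand, 23 bases upstream: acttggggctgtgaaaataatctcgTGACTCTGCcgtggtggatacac
Ctla2a, chr13:60936721-60936779, minus strand, 129 bases upstream: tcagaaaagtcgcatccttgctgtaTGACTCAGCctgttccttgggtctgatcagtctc
Prdx1, Me1 and Ctla2a hold the full TGACTCAGC, on the opposite strand in Prdx1, and the others hold TGACNNNGC with another centre. Of the 381 genes called higher, 276 had a promoter in the table, and TGACNNNGC was in 56 of them (20.3%, 95% exact Clopper-Pearson interval 15.7 to 25.5%). It was in 64 of 304 promoters of genes called lower (21.1%, 16.6 to 26.1%) and in 1623 of 9479 of all tested genes (17.1%). The shares of genes called higher and lower thus lay within each other's intervals. TGACTCAGC was in 6 of 276 promoters of genes called higher (2.17%, interval 0.802 to 4.67%) and 3 of 304 of genes called lower (0.987%, 0.204 to 2.86%). Of all tested genes 50 of 9479 held it (0.527%, 0.392 to 0.695%). Of the 37 genes called higher in the 8 lists, 28 had a promoter in the table. TGACNNNGC was in 9 of them (32.1%, interval 15.9 to 52.4%) and TGACTCAGC in 2 (7.14%, interval 0.877 to 23.5%). Over all 32851 promoters the shares were 12.4% and 0.454%. Genes can have several promoters, and a gene counts once if any of them holds the word. A match is a description of the letters and not a site of binding, and elements farther from the start are outside these windows.

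None of 10 tested regulators and relatives of Nrf2 was called, among them Keap1, Nfe2l1 and Bach1, where 6.3% of all tested genes were called. At that share lists as short as those in this paragraph can hold no call, so a lack of calls does not show that their genes were unchanged. Nfe2l1, a related factor that partners small Mafs, was at 294 ± 8.76 CPM in mock and 276 ± 2.86 CPM in T-N2G (log2 -0.09 ± 0.04, adjusted p = 0.182). None of 32 proteasome genes was called either, where Psmd2, the most abundant, was at 281 ± 11.5 and 297 ± 8.09 CPM (log2 0.08 ± 0.04, adjusted p = 0.194), while 17 of the 32 were called higher in the DEM comparison of the same cells, as were 10.3% of all tested genes. The lists of DNA replication (30 tested) and mitosis (25 tested) held no call, beside 6.3% of all tested genes. In them Rrm1, a ribonucleotide reductase subunit, had a log2 fold change of 0.04 ± 0.05 (adjusted p = 0.667) and Mki67, the proliferation marker, 0.11 ± 0.05 (adjusted p = 0.249). Of 14 autophagy genes 1 rose, Tfe3, and 1 fell, Nbr1, both lost without either library of replicate 3 among others (adjusted p up to 0.196 and 0.154 in edgeR). Atf4 and Vldlr were the 2 calls, both higher, among 29 genes of the amino acid stress response (6.9%, near the share of all tested genes). Of the 29 fold changes 26 were positive, as were 6166 of 12469 over all tested genes. The calls of Atf4 and Vldlr were lost when single libraries were left out, T-N2G replicate 2 and replicate 3 of either group among them (adjusted p up to 0.211 and 0.226 in edgeR).

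Targets of p53, the damage-responsive factor that arrests the cell cycle, moved the other way. Of 25 tested members 9 fell and none rose, where 3.24% of all tested genes fell and 3.06% rose. None of the 25 was called without the replicate number. Their median log2 was -0.16, and 23 of the 25 fold changes were negative, as were 6303 of 12469 over all tested genes. Pmaip1, a BH3-only activator of apoptosis, was at 129, 148 and 121 CPM in mock and 95, 115 and 103 CPM in T-N2G libraries, 1.27-fold lower (log2 -0.35 ± 0.05, adjusted p = 0.000307). Perp, a desmosomal p53 effector, was at 46.3, 48.1 and 44.9 and 35.5, 38 and 26.7 CPM, 1.4-fold lower (log2 -0.48 ± 0.08, adjusted p = 0.000691). Both had all T-N2G libraries below all mock libraries. Cdkn1a, which encodes the cyclin-dependent kinase inhibitor p21, was at 145, 217 and 142 CPM in mock and 113, 185 and 87.3 CPM in T-N2G (log2 -0.42 ± 0.08, adjusted p = 0.00412). Its replicate 2 was the highest library in both groups, so the groups overlapped and the difference appeared within pairs. Trp53inp1 behaved likewise, at 84.2, 200.4 and 105 and 66.4, 139.6 and 61.9 CPM (log2 -0.55 ± 0.09, adjusted p = 0.00111), and so did the death receptor gene Eda2r (log2 -0.52 ± 0.08, adjusted p = 0.000658). Ccng1, cyclin G1, was at 315 ± 55.6 and 252 ± 73.8 CPM and lost its call without T-N2G replicate 3 (adjusted p = 0.0585 in edgeR). Mdm2, Btg2 and Tnfrsf10b made up the 9. The count was 5 without T-N2G replicate 3. By pair, the median log2 ratio of T-N2G to mock over the 25 genes was -0.13 in replicate 1, -0.16 in replicate 2 and -0.29 in replicate 3.

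Interferon-response genes were lower as well, but the calls rested on 1 pair of libraries. Of 32 tested members 8 fell and none rose, where 3.24% of all tested genes fell and 3.06% rose. None of the 32 was called without the replicate number. Their median log2 was -0.44, and 30 fold changes were negative, as were 6303 of 12469 over all tested genes. The median log2 ratio of T-N2G to mock was -0.12 in the pair of replicate 1, -0.18 in that of replicate 2 and -0.82 in that of replicate 3, where 31 of 32 genes were lower, against medians of 0.00 over all tested genes in each pair. Leaving out mock replicate 3 left no call in the list and leaving out T-N2G replicate 3 left 1, while 15 were called without mock replicate 1 and 4 without T-N2G replicate 1. The values by library were as follows. Ddx58, the RNA sensor RIG-I, was at 46.4, 70.8 and 109 CPM in mock and 41.2, 61 and 65.6 CPM in T-N2G libraries, with mock replicate 3 the highest of the 6 (log2 -0.40 ± 0.10, adjusted p = 0.0201). Ifitm3, an antiviral membrane protein, was at 44.8, 60.6 and 112 and 40.3, 56.5 and 67.9 CPM (log2 -0.35 ± 0.09, adjusted p = 0.0316). Rtp4 was at 0.900, 2.03 and 8.68 and 0.787, 1.37 and 3.53 CPM (log2 -0.94 ± 0.23, adjusted p = 0.0186). Mock replicate 3 was again the highest library for both, and T-N2G replicate 3 the next. Without mock replicate 3 the adjusted p in edgeR was 0.189 for Ddx58, 0.31 for Ifitm3, 0.567 for Rtp4, 0.0929 for Ifi35 and 0.135 for Trim25. Tap1, Ifit1 and Oasl2 were the other calls. The libraries of replicate 3 carry another series of library codes than those of replicates 1 and 2.

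**Figure D4:**
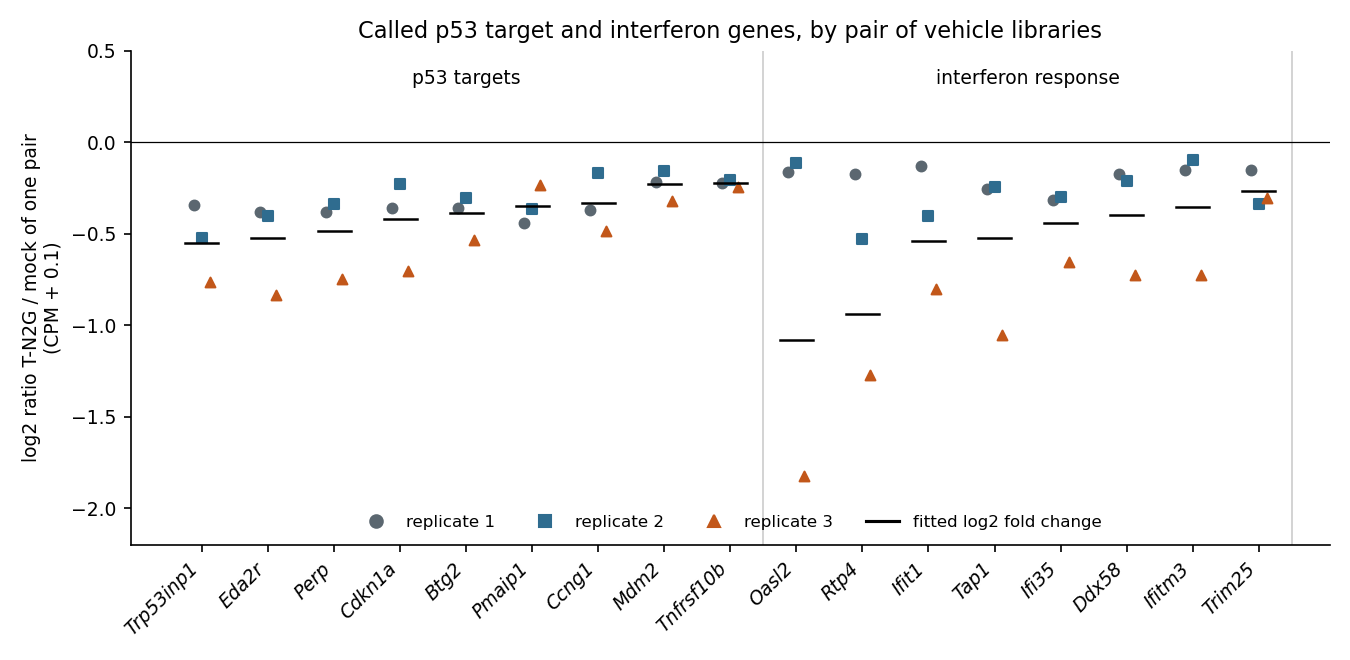
Log2 ratio of T-N2G to mock CPM (0.1 added to each) in each of the 3 pairs of vehicle libraries, for the 9 p53 targets and the 8 interferon-response genes called lower; bars give the fitted log2 fold change. The interferon-response genes lie lowest in the pair of replicate 3, whose median over the whole list was -0.82 against -0.12 and -0.18 in the others.

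Matrix genes changed in both directions, where 3.06% and 3.24% of all tested genes were called higher and lower. Of 16 collagens 5 rose and 1 fell, with the same counts after leaving out any 1 vehicle library and none called without the replicate number. Col3a1, a fibrillar collagen, was at 607, 773 and 445 CPM in mock and 740.2, 1028 and 609 CPM in T-N2G libraries (log2 0.38 ± 0.05, adjusted p = 6.35e-05). Col4a1 and Col4a2, the basement membrane chains encoded side by side, rose together, from 734 ± 5.26 to 901 ± 50.2 CPM (log2 0.29 ± 0.04, adjusted p = 0.000204) and from 665 ± 6.6 to 798 ± 40.7 CPM (log2 0.26 ± 0.04, adjusted p = 0.00037). The basement membrane chains did not overlap between groups, while replicates of Col3a1 varied more than its groups. Col6a3 (log2 0.30 ± 0.05, adjusted p = 0.000798) and Col15a1 (log2 0.48 ± 0.09, adjusted p = 0.0033) also rose, and Col8a1 fell (log2 -0.31 ± 0.05, adjusted p = 0.000484). Of 24 other matrix genes 5 rose and 7 fell. Vcan, the proteoglycan versican, was at 127, 154 and 71 and 201, 236 and 141 CPM (log2 0.74 ± 0.07, adjusted p = 4.45e-06). Eln, elastin, was at 1.05, 4.58 and 11.7 CPM in mock and 0.148, 0.948 and 4.06 CPM in T-N2G, 3.44-fold lower in the paired fit (log2 -1.78 ± 0.21, adjusted p = 3.72e-05), with the replicates of each group far apart. Ltbp2, which binds microfibrils, rose (log2 0.32 ± 0.06, adjusted p = 0.00168) and Loxl3, a collagen crosslinking oxidase, fell (log2 -0.23 ± 0.04, adjusted p = 0.00194). The other calls of this list were Fn1, Thbs2 and Fbln1 (higher) and Sparc, Thbs1, Bgn, Fbln2 and Fbln5 (lower). Without T-N2G replicate 3 the list had 2 higher and 2 lower, without mock replicate 3 it had 2 lower, without T-N2G replicate 1 it had 3 lower, and without mock replicate 1 or T-N2G replicate 2 it had 3 higher. Of 15 matrix proteases and inhibitors 5 fell and none rose. Mmp2, gelatinase A, was at 15.1, 25.9 and 28.3 and 9.1, 17.3 and 16.7 CPM (log2 -0.68 ± 0.11, adjusted p = 0.000739), and Adamts2, which trims procollagen, at 181 ± 38.8 and 142 ± 27.4 CPM (log2 -0.35 ± 0.06, adjusted p = 0.00101). Plat, Timp2 and Timp3 lost their calls in single omissions, that of mock replicate 3 among them, and the list then had 2 calls (3 without T-N2G replicate 1 or 3 or mock replicate 2).

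Genes of the contractile apparatus and of TGF-beta and YAP signalling had 5 of 18 members higher and 1 lower, and 16 positive fold changes. Of all tested genes 3.06% and 3.24% were called higher and lower, and 6166 of 12469 had a positive fold change. Myl9, a myosin regulatory light chain, was at 59.5, 45.3 and 45.8 CPM in mock and 95.4, 79.8 and 93 CPM in T-N2G libraries, 1.79-fold higher (log2 0.84 ± 0.05, adjusted p = 2.59e-08), and was the call that held without the replicate number. Cnn1, calponin, was at 3.25, 3.12 and 2.74 and 5.26, 4.69 and 4.87 CPM (log2 0.70 ± 0.13, adjusted p = 0.00231). Neither overlapped between groups. Tpm1, Tpm2, Flna and, lower, Zyx were the other calls, and the count of members called higher was 9 without mock replicate 1, 3 without mock replicate 2 and 2 without replicate 3 of either group. Of 9 genes of lipid uptake and the adipogenic program 4 rose and none fell. Lpl, lipoprotein lipase, was at 7.75, 9.06 and 8.35 and 17.6, 20.9 and 24.6 CPM, 2.51-fold higher (log2 1.33 ± 0.12, adjusted p = 1.35e-06). Pparg, the adipogenic nuclear receptor, rose from 21 ± 2.92 to 27.9 ± 2.25 CPM (log2 0.41 ± 0.06, adjusted p = 0.000658) and Fabp5, a fatty acid binding protein, from 46.2 ± 9.81 to 59.3 ± 8.67 CPM (log2 0.37 ± 0.07, adjusted p = 0.00186). Plin2, which coats lipid droplets, lost its call without mock replicate 2 (adjusted p = 0.053 in edgeR). The adipocyte markers Adipoq, Plin1 and Lep were at 0 in all 6 libraries, and the 5 markers together summed to 0.0944 to 0.189 CPM in mock and 0.0948 to 0.148 CPM in T-N2G. Of 22 immediate early genes 3 fell, Klf4 (144 ± 22.7 against 111 ± 14.1 CPM, log2 -0.37 ± 0.06, adjusted p = 0.000641), Nr4a1 and Egr1, and 1 of the 3 was called without T-N2G replicate 2 or replicate 3 of either group.

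Some of the largest differences were in genes outside these functions. Foxd1, a forkhead factor of mesenchymal and stromal position, was at 0.25, 0.519 and 0.424 CPM in mock and 2.11, 2.28 and 5.39 CPM in T-N2G libraries, 7.96-fold higher (log2 2.99 ± 0.27, adjusted p = 1.83e-06). Of 37 position-related factors it and Hoxc11 were called (5.41%, beside 6.3% of all tested genes). Hoxc11 lost its call in 5 of 6 omissions, all but that of mock replicate 3 (adjusted p up to 0.132 in edgeR). Ttn, the giant sarcomere protein titin, was at 1.05, 0.566 and 0.566 and 4.72, 3.27 and 5.54 CPM (log2 2.63 ± 0.21, adjusted p = 3.64e-07). Its call was lost in limma on log2(FPKM + 1) and on log2(FPKM + 0.1), where its mean FPKM was 0.0088 in mock and 0.0545 in T-N2G. The skeletal muscle markers, of which Ttn is 1, summed to 2.64 to 5.9 CPM in mock and 5.26 to 13.4 CPM in T-N2G, with Myod1 and Myog at or below 0.0492 CPM. Daam2, a formin (log2 2.15 ± 0.24, adjusted p = 2.37e-05), Clmp, an adhesion molecule (log2 2.05 ± 0.21, adjusted p = 8.68e-06), and Kcnip1, a potassium channel partner (log2 1.81 ± 0.16, adjusted p = 1.82e-06), were each under 10 CPM in every library. Mt3, a metallothionein, had no fragment in the mock libraries and 21 in the T-N2G libraries together, at least 7-fold higher against a floor of 3 fragments over the group (edgeR adjusted p = 0.00457). Among the genes called lower, with at least 2 CPM in mock cells and no overlap between groups, Gm21992, Enox1, Zdbf2, Cntnap3, Myrf and Ctla2a had the largest differences. Without these conditions Eln, given above, and several genes of low level would stand among them. Enox1, a cell surface oxidase, was at 0.95, 2.5 and 3.21 and 0.393, 0.521 and 0.907 CPM (log2 -1.85 ± 0.29, adjusted p = 0.000603), and Myrf, a membrane-bound factor best known from myelination, at 5.5, 7.41 and 15.5 and 2.8, 3.22 and 4.44 CPM (log2 -1.40 ± 0.16, adjusted p = 3.52e-05). Cntnap3 (log2 -1.61 ± 0.22, adjusted p = 0.000204) and Ctla2a, a cathepsin inhibitor (log2 -1.27 ± 0.15, adjusted p = 3.39e-05), had lower levels in every T-N2G library than in any mock library. Gm21992 overlaps other genes in its locus and its levels jumped between 0 and 1.61 CPM within the T-N2G group, so its value is uncertain, and its call was lost in 5 of 6 omissions, all but that of T-N2G replicate 2 (adjusted p up to 0.213 in edgeR).

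Imprinted genes, expressed from 1 parental copy, and Y-linked genes were compared because levels of both can differ between cell populations of separate origin. Of 23 imprinted genes 5 rose and 4 fell, beside 3.06% and 3.24% of all tested genes. Peg10 was at 29.2, 27.2 and 19.4 CPM in mock and 76.1, 67.8 and 66.5 CPM in T-N2G libraries, 2.8-fold higher (log2 1.49 ± 0.09, adjusted p = 1.77e-08), and Cdkn1c, the inhibitor p57, at 12.6, 11.7 and 11 and 22.3, 20.1 and 20.7 CPM (log2 0.84 ± 0.07, adjusted p = 1.82e-06). Zdbf2 fell, from 7.8, 8.83 and 14.6 CPM to 2.75, 2.94 and 3.39 CPM, 3.4-fold (log2 -1.76 ± 0.15, adjusted p = 9.4e-07). These were the 3 imprinted genes called without the replicate number, and in each the groups did not overlap. Igf2, a fetal growth factor, was at 353, 344 and 715 and 206, 208 and 613 CPM (log2 -0.57 ± 0.10, adjusted p = 0.00174), with replicate 3 the highest in both groups. Peg3 fell too (log2 -0.88 ± 0.11, adjusted p = 0.000106), as did Rian, and H19, Mest and Sgce rose. The number that rose was 3 without mock replicate 2. Of the Y-linked genes, Ddx3y was at 6.85, 6.47 and 6.13 CPM in mock and 10.6, 9.43 and 11.5 CPM in T-N2G (log2 0.70 ± 0.10, adjusted p = 0.000307). Eif2s3y was at 3.95, 4.25 and 3.54 and 6.05, 5.88 and 6.11 CPM (log2 0.62 ± 0.14), a call lost without replicate 3 of either group (adjusted p up to 0.0807 in edgeR). Uty (1.56 to 2.36 CPM in mock and 2.61 to 3.56 CPM in T-N2G) and Kdm5d (2.5 to 3.16 and 3.59 to 4.39 CPM) were not called in edgeR (adjusted p = 0.0837 and 0.083). All 4 tested Y-linked genes were nevertheless higher in every T-N2G library than in any mock library, where 5.11% of all tested genes were, and Xist was at most 0.25 CPM. A difference between the populations in the share of cells with a Y chromosome, or in their origin, cannot be told apart from an effect of T-N2G here, and its part in the other results was not tested.

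Markers of cell types were set beside these results, where 3.06% and 3.24% of all tested genes were called higher and lower. The 9 epithelial markers summed to 109 to 166 CPM in mock and 104 to 139 CPM in T-N2G libraries, nearly all of it Krt19 (95.4 to 142 CPM) with Epcam at most 0.0955 CPM. Krt19, 1 of 3 tested, was called lower (log2 -0.19 ± 0.05, adjusted p = 0.033). Endothelial markers summed to 9.55 to 15.7 and 10.3 to 14.5 CPM, with Tie1 at 0. Leukocyte markers summed to 6.05 to 7.36 and 5.56 to 6.92 CPM, with Adgre1, Lyz2 and Tyrobp at 0. The cartilage and bone markers summed to 98.9 to 105 CPM in mock and 109 to 121 CPM in T-N2G, mostly Runx2 and Sox9, and 1 of the 3 tested, Runx2, was called, a call lost without mock replicate 2 or replicate 3 of either group (adjusted p up to 0.107 in edgeR). The neural markers summed to 395 to 536 and 364 to 556 CPM, mostly Nes (286 to 499 CPM), with Sox2 and Gfap at 0, and Map2, 1 of 4 tested, was called lower (log2 -0.33 ± 0.07, adjusted p = 0.0119). Apart from the cartilage and bone sum, the ranges of the 2 groups overlapped. The fibroblast sum was 11200 to 12900 CPM in mock and 10400 to 13100 CPM in T-N2G. Of 11 tested fibroblast markers Col3a1 and Pdgfrb (log2 0.21 ± 0.05, adjusted p = 0.0173) were called higher and Twist1 (log2 -0.25 ± 0.06, adjusted p = 0.0216) lower. Krt19, Map2, Pdgfrb and Twist1 each lost the call in 4 of 6 omissions of 1 library, those of mock replicate 3 and T-N2G replicate 3 among them (adjusted p up to 0.216, 0.0996, 0.149 and 0.145 in edgeR), and none of these calls was made without the replicate number. No endothelial or leukocyte marker was called, with 2 tested of each. The part of these markers in the other results was not tested.

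The same cell populations in DEM, which are other libraries, gave a view of the genes called in vehicle. Of the 381 genes higher in vehicle, 281 (73.8%) were called higher in T-N2G over mock cells in DEM, where 10.3% of all tested genes were, and they made up 21.9% of those called there. The signs were the same for 352, and 6 were called the opposite way. Of the 404 lower genes 312 (77.2%) were called lower in DEM, where 9.32% of all tested genes were, and 3 the opposite way, namely Serpinb9b, Rab27b and Ralgps1. Without the replicate number 37 of the 38 genes called higher in vehicle were called higher in DEM, where 2.61% of all tested genes were. Replicate numbers are shared between vehicle and DEM, so the 2 sets of libraries are not independent in that respect.

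The 37 genes of the 8 antioxidant, detoxification, heme and NADPH lists differed more between T-N2G and mock cells in DEM than in vehicle. In 35 of them the log2 difference was larger in DEM, the exceptions being Gpx1 and Akr1b8, and the interaction was called in 29 (25 without the replicate number), against 1.82% of all tested genes called in that direction. Gsta4 went from a log2 difference of 3.93 ± 0.17 in vehicle to 7.32 ± 0.13 in DEM, a change of 3.39 ± 0.34 (adjusted p = 6.36e-06). Slc40a1 went from 2.73 ± 0.17 to 6.09 ± 0.16, a log2 change of 3.36 ± 0.31 (adjusted p = 2.33e-06). For Nqo1 the values were 2.01 ± 0.17 and 4.14 ± 0.14 (log2 change 2.12 ± 0.25, adjusted p = 4.51e-05). These 3 genes already differed at least 4-fold in vehicle. Srxn1, with a log2 difference of 0.53 ± 0.09 in vehicle, had 2.61 ± 0.08 in DEM (change 2.08 ± 0.12, adjusted p = 7.63e-09), and Pgd had 0.64 ± 0.07 and 2.55 ± 0.07 (change 1.91 ± 0.09, adjusted p = 1.11e-09). Hmox1 had 0.62 ± 0.10 and 1.63 ± 0.10 (change 1.01 ± 0.14, adjusted p = 0.000196), a change not called without the replicate number (edgeR adjusted p = 0.348). A further 21 of the 113 members of the 8 lists were called higher in DEM and not in vehicle, as were 8.01% of all tested genes. The introduced genes had somewhat smaller log2 differences in DEM, 7.11 ± 0.10 for Mafg and 3.14 ± 0.11 for Nfe2l2, and neither change was called (interaction adjusted p = 0.111 and 0.361).

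**Figure D5:**
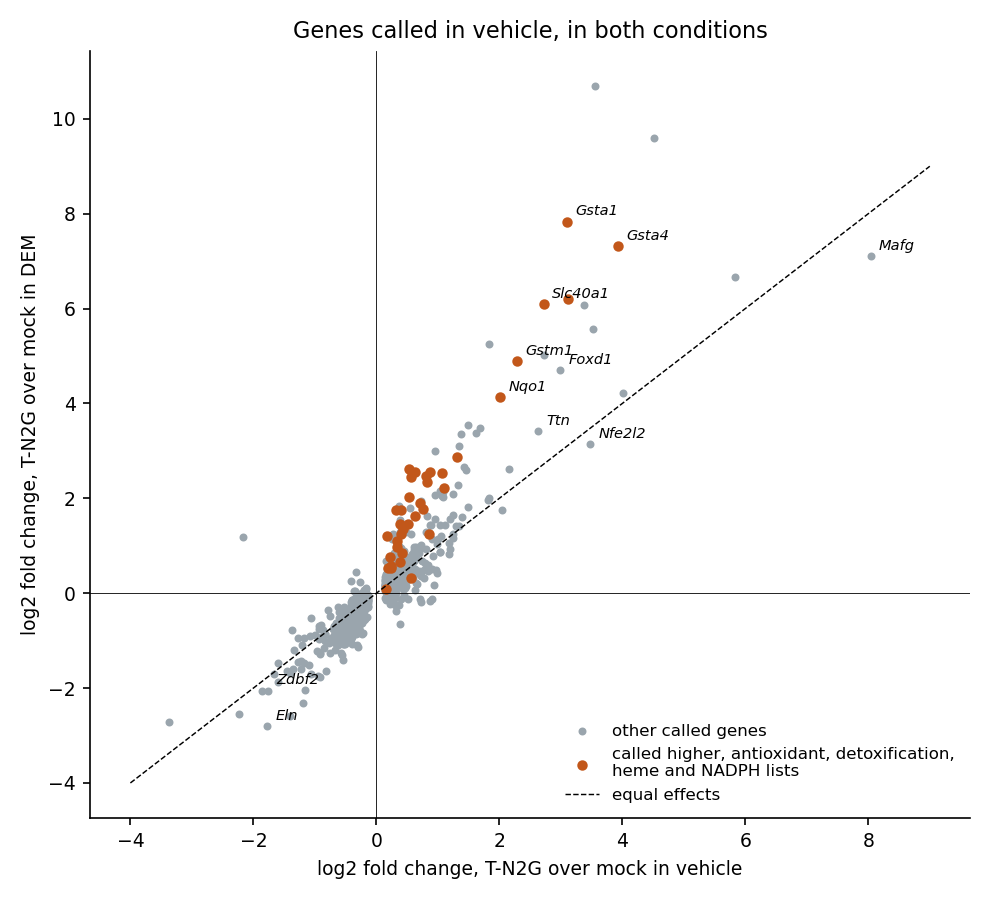
Fitted log2 difference between T-N2G and mock cells in DEM (vertical axis) against that in vehicle (horizontal axis) for the genes called in vehicle, with the 37 antioxidant, detoxification, heme and NADPH genes called higher in orange and a dashed line at equal effects. Of the 37, 35 lie above the line, Gsta4 and Slc40a1 among the farthest, while Mafg and Nfe2l2 lie below it.

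Other genes called in vehicle were set beside these. Foxd1 had a log2 difference of 2.99 ± 0.27 in vehicle and 4.70 ± 0.23 in DEM (interaction adjusted p = 0.0686), and Peg10 of 1.49 ± 0.09 and 1.81 ± 0.10 (interaction adjusted p = 0.325). Neither interaction was called, which does not show that the differences were equal. Myl9, higher in vehicle, differed by less in DEM (log2 0.46 ± 0.05, change -0.38 ± 0.08, adjusted p = 0.00744). Col6a3 turned, from 0.30 ± 0.05 in vehicle to -0.25 ± 0.05 in DEM (change -0.55 ± 0.07, adjusted p = 7.15e-05). Among the genes lower in vehicle, S1pr1, a sphingosine phosphate receptor, was at 53.3 ± 5.27 CPM in mock and 43.3 ± 6.4 CPM in T-N2G (log2 -0.30 ± 0.05, adjusted p = 0.00196) and lower still against mock in DEM (log2 -1.13 ± 0.06, change -0.83 ± 0.08, adjusted p = 5.41e-06). Without the replicate number none of these 3 changes was called in edgeR (adjusted p = 0.9999 for Myl9, 0.9999 for Col6a3 and 0.218 for S1pr1). Of the 404 genes called lower in vehicle the interaction was called lower, toward a stronger fall in DEM, in 34 and higher in 6. Of the 381 genes called higher it was called higher, toward a stronger rise, in 72 and lower in 16. Of all tested genes 1.82% had the interaction called higher and 0.978% lower. Without the replicate number the interaction was called higher in 52 (0.417%) and lower in 2 (0.016%) of all tested genes, against 227 and 122 with it.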

How the data were processed

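Polyadenylated RNA was extracted with RNeasy Mini and made into libraries with the SureSelect Strand Specific kit, per the labels' protocols. The submitters' processing notes name bcl2fastq 2.16.0.10, TopHat2 2.0.8b, Cuffdiff 2.1.1 and mm9; the annotation and strand setting are not given in the sources used here, so reads of overlapping genes may be shared. The authors deposited estimated counts of fragments per gene and library (98.27% whole numbers, not scaled between libraries) and FPKM, which is scaled by transcript length and library size. Of 24318 genes 17 had a failed estimate in 37 values and were kept.

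Here the counts were rounded and tested with edgeR 4.0.16 in R 4.3.3 on all 12 libraries (18863560 to 23095692 fragments), which share 1 estimate of the spread (quasi-likelihood test, a coefficient per group, TMM factors 0.98 to 1.03, filterByExpr with a minimum count of 10 and a minimum total of 15, Benjamini-Hochberg over the 12469 tested genes, call at an adjusted p under 0.05). The replicate number was a block, because the comparison is defined by pairs of that number. Whether the numbers pair the libraries was checked on how far each library's log2 CPM lay from its group mean. The 18 pairs with the same number had r of 0.361 to 0.631, the 36 others -0.422 to -0.00363, and 12 of 12 libraries correlated best with their own number. Such deviations cancel within a group, so positive values for the same number force negative ones elsewhere on average. The negative range is therefore not separate evidence of pairing. The labels do not say what the numbers stand for. The block lowered the common coefficient of variation from 0.11 to 0.0428 and left 6 residual degrees of freedom. CPM used effective library sizes, and standard errors are the absolute log2 fold change over the square root of F. The script was also run on simulated counts, whose spread and replicate effects were taken from the fit with the block. That run therefore does not test the pairing, and its outcome is not given here.

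Named genes are Nfe2l2, Mafg, Maff and Mafk, the 12 largest changes in each direction among called genes with at least 2 CPM and no overlap of groups, up to 6 called members per list by adjusted p, the most abundant member of a list without a call, and the 6 clearest differences between vehicle and DEM in each direction. The no-overlap condition fixes separation for the first of these. Further members named without statistics were chosen after their values were seen. The gene lists and the rules were chosen with earlier results of these data known, so the lists are described by counts and medians and no list was tested. Intervals and floors cover counting error only. Alternatives were a fit with no block, the 6 vehicle libraries alone, DESeq2 1.42.0, RLE size factors, no filter, limma 3.58.1 on log2(FPKM + 1) and log2(FPKM + 0.1), and omission of each library or replicate number. Scaled fragments, also deposited, were not used.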

Additional observations from a re-analysis of the deposited data

Results flagged for a closer look

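The difference between T-N2G and mock cells was tested for a change between vehicle and DEM, as an interaction in edgeR's quasi-likelihood fit with Benjamini-Hochberg adjustment. It was called for 45 of the genes named by rule, which include the 6 clearest in each direction, so their number says nothing about genes at large. Values are the log2 difference in DEM minus that in vehicle. Without the replicate number in the model the change was called for 27 of the 45. The other 18 were Hmox1, Txn1, Lpl, Gpi1, Pkm, the 4 genes below with a smaller or turned difference in DEM and the 9 genes lower still in DEM (adjusted p 0.218 to 0.9999 in edgeR). With it, 5 genes named at the end lost the call in omissions of 1 vehicle library.

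Among genes of glutathione and its transferases the change was 1.67 for Gclc, 1.88 for Gclm, 1.46 for Slc7a11, 2.61 for Gstm1 and 3.39 for Gsta4. In heme and iron genes it was 1.57 for Slc48a1, 3.36 for Slc40a1, 1.11 for Fth1, 0.95 for Ftl1 and 1.01 for Hmox1. Thiol and peroxide genes had 2.08 (Srxn1), 1.5 (Txnrd1), 1.67 (Prdx6), 0.75 (Prdx1), 0.34 (Txn1), 1.03 (Cat) and 0.65 (Sod1). NADPH genes had 1.91 (Pgd), 0.93 (G6pdx), 1.02 (Me1), 0.54 (Tkt) and 0.86 (Taldo1). Detoxification and export genes had 2.12 (Nqo1), 1.53 (Esd), 1.35 (Ptgr1), 1.42 (Abcc4) and 1.08 (Abcc1). All of these were larger in DEM.

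Further genes that were higher in T-N2G cells in vehicle and differed more in DEM were Cyb5a (1.47), Lpl (0.96), Tfe3 (0.52), Gpi1 (0.33) and Pkm (0.23). Genes that were higher in vehicle with a smaller or turned difference in DEM were Col6a3 (-0.55), Myl9 (-0.38), Atf4 (-0.24) and Vldlr (-0.37). Genes lower in vehicle and lower still against mock in DEM were S1pr1 (-0.83), Prelp (-0.68), Cd248 (-0.63), Timp3 (-0.63), Pcdh19 (-0.54), Zyx (-0.47), Klf4 (-0.43), Loxl3 (-0.40) and Pmaip1 (-0.33).

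The call of this change was lost for Pkm without any 1 vehicle library, for Vldlr in 5 omissions (all but that of mock replicate 2), for Atf4 without replicate 2 or 3 of either group, for Pmaip1 without T-N2G replicate 3 and for Txn1 without T-N2G replicate 2.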

How the results depend on the processing

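The fit with no replicate block called 38 genes higher and 1 lower in vehicle, 325 and 138 in DEM, and 52 and 2 for the difference between them, against 381 and 404, 1283 and 1162, and 227 and 122 with the block; at an unadjusted p under 0.05 the vehicle counts in both directions together were 800 and 2594. Of the 124 called genes named by rule 23 were called without the block, and as the rule mostly takes called genes this does not describe all calls. Limma called 265 genes lower in vehicle on log2(FPKM + 1) and 262 on log2(FPKM + 0.1), and without a filter 186 genes had a lower difference in DEM. For these counts the cause was not tested. The promoter share was 2.17% for TGACTCAGC in place of TGACNNNGC. Since TGACNNNGC covers TGACTCAGC, that share could not be the larger. The vehicle counts of the other alternatives, the 6 vehicle libraries alone, DESeq2, RLE size factors and no filter, were within 1.5 times, and the vehicle libraries alone give no value for DEM or the difference. Leaving out 1 vehicle library or 1 replicate number gave 182 to 339 genes higher and 113 to 407 lower in vehicle, 863 to 1305 and 715 to 1242 in DEM, and 127 to 225 and 56 to 124 for the difference. The lowest vehicle counts, 182 and 113, came without replicate 3 in all groups, which leaves the first series of library codes alone, and leaves fewer libraries in the fit.

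Among the 132 genes named by rule, signs turned only in genes that were not called. The signs of other genes were not compared between settings. Over the omissions the log2 fold change of Maff ran from -0.23 (without T-N2G replicate 1) to 0.061 (without T-N2G replicate 2, with 0.058 without replicate 2 in all groups). That of Rrm1 ran from -0.018 (without mock replicate 3, with -0.017 without replicate 3 in all groups) to 0.077 (without mock replicate 1), and that of Kdr from -0.17 (without mock replicate 2) to 0.012 (without replicate 3 in all groups). Genes of a few fragments per library, Gsta1, Heph, Mt3 and Gm21992 among them, are limited by depth, and their fold changes are the least certain. Of the genes named by rule 29 lost their vehicle call in limma on log2(FPKM + 1), Ttn, Heph and Eln among them, and 24 on log2(FPKM + 0.1).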

Other observations

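Lists of basal metabolism and protein folding were counted as well, beside 3.06% of tested genes called higher and 3.24% called lower. Of 18 tested glycolysis genes 2 were called higher, Gpi1 (log2 0.18 ± 0.04, adjusted p = 0.0148) and Pkm (0.15 ± 0.04, adjusted p = 0.04), both in edgeR and both lost in at least 4 of 6 omissions of 1 vehicle library. In 26 sterol and fatty acid synthesis genes the 1 call was Srebf1, the transcription factor of lipid synthesis, at 85.9 ± 11.5 CPM in mock and 73.1 ± 8.78 CPM in T-N2G (n = 3 each), lost without mock replicate 2 or replicate 3 of either group (adjusted p up to 0.123 in edgeR). Of 18 genes of folding in the endoplasmic reticulum Edem1, which feeds misfolded glycoproteins to degradation, was called lower, at 125 ± 2.58 against 107 ± 8.96 CPM (log2 -0.24 ± 0.05, edgeR adjusted p = 0.00412), after the omission of any 1 vehicle library too. Of 18 heat shock genes Hsp90ab1 was called, higher (log2 0.17 ± 0.05, edgeR adjusted p = 0.0431). That call was lost in 4 of 6 omissions of 1 vehicle library (all but mock replicate 1 and T-N2G replicate 2, adjusted p up to 0.243), and with the vehicle libraries alone, RLE size factors or limma. Of 8 metallothionein and zinc genes Mt3 was called higher. None of these held without the replicate number in the model.

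Cyb5a, the electron carrier cytochrome b5, was in none of the lists. It was at 37.7, 42.7 and 35.9 CPM in the mock libraries and 48.5, 53.3 and 48.7 CPM in the T-N2G libraries, without overlap (log2 0.37 ± 0.06, edgeR adjusted p = 0.00155), and was called after the omission of any 1 vehicle library. It was named because its difference grew in DEM.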
